A study of Homo sapiens with 38 samples.

Results

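HMOX1 encodes the inducible haem oxygenase, and the 9 other genes described with it are known targets of the transcription factor NRF2. They are GCLM, GCLC, SRXN1, TXNRD1, NQO1, ME1, SQSTM1, FTL and FTH1. HMOX1 was selected on its own rise after combined silencing of VPS4A and VPS4B in these libraries. All 10 were found by symbol among the 12627 genes of the table. The comparisons ask whether HMOX1 rose alone or together with these targets.

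Messenger RNA of HCT116 cells, a human colorectal cancer line, was measured with an amplicon panel 72 h after siRNA transfection. NT cells were not transfected (4 libraries), and siCTRL#1 (5 libraries, 60 nM) and siCTRL#2 (4 libraries, with no dose of their own in the sample records) are non-targeting duplexes. The duplexes siVPS4A#1 (5 libraries, of which 4 were used), siVPS4A#2, siVPS4B#1 and siVPS4B#2 (4 libraries each) were given at 30 nM together with 30 nM siCTRL#1. Both paralogs were silenced with a pair of duplexes in each of 2 further conditions, which have no duplex in common. Cells of siVPS4A+B#1 received siVPS4A#2 and siVPS4B#1, and cells of siVPS4A+B#2 received siVPS4A#1 and siVPS4B#2 (4 libraries each, 30 nM of each duplex).

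Total reads per library over the listed genes ranged from 669257 to 11035293 with a median of 7560610. The lowest total was that of the library labelled siVPS4A#1 replicate 2, against 5090666 or more in each of the other 37. That library also stood apart by its profile and, as given with the silenced genes, by its VPS4B reads. Relative to the mean of the libraries, its levels over 8328 genes had a Pearson r of -0.0988 with the 4 siVPS4A#1 libraries used and of 0.697 with siVPS4A+B#1, given as a description across genes that are not independent. Its HMOX1 level was 335 RPM (reads for every 1000000 reads of the library, scaled by TMM factors), resting on 207 reads, while the 4 siVPS4A#1 libraries used had 66.6 to 102. It was left out of all comparisons. Some values are also given with it put back, which places it under its label as siVPS4A#1.

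The labels were checked against the silenced genes. In the 37 libraries used, VPS4A and VPS4B were low where the labels name a duplex against them. All levels are in RPM. VPS4A had 249 ± 55.0 (SD, n = 4) in NT cells and 190.0 ± 14.0 (SD, n = 5) after siCTRL#1. It was 2.18 ± 0.895 (SD, n = 4) after siVPS4A#1 and 7.88 ± 2.22 (SD, n = 4) after siVPS4A#2. Of the pairs, siVPS4A+B#1 had 19.96 ± 10.6 (SD, n = 4), whereas siVPS4A+B#2 had 5.03 ± 1.96 (SD, n = 4). Every library that received a VPS4A duplex was below every library that did not. VPS4B had 22.2 ± 5.44 (SD, n = 4) in NT cells and 20.7 ± 3.54 (SD, n = 5) after siCTRL#1. It was 0.433 ± 0.335 (SD, n = 4) after siVPS4B#1, and 1.07 ± 0.361 (SD, n = 4) after siVPS4B#2. Among cells given pairs, siVPS4A+B#1 left 0.538 ± 0.331 (SD, n = 4) and siVPS4A+B#2 left 1.28 ± 0.315 (SD, n = 4). These low VPS4B levels rest on 1 to 16 reads per library.

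The library left out went against its label. As a siVPS4A#1 library it received no VPS4B duplex, yet it had 1 read of VPS4B, or 1.62 RPM. Of the libraries used, the 21 without a VPS4B duplex had 14.3 to 38.8, and the 16 with one had 0.133 to 1.57. In this library even 3 reads, the floor for counting used here, would stand for 4.86 RPM. Its VPS4A level was 11.3 RPM on 7 reads, above the 1.63 to 3.52 of the siVPS4A#1 libraries used and within the 10.6 to 33.9 of siVPS4A+B#1. Whether samples were exchanged or mixed was not tested.

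The epithelial markers EPCAM, KRT8, KRT18 and CDH1 were present in every library, with the lowest level at 28.4 RPM for CDH1 and the highest at 2550.0 for KRT8. Of 5 markers of other cell types, 3 were measured. PECAM1 was near 0, at most 1.75 RPM and at 0 in 1 siVPS4A#1 library. CD68 had 4.98 to 7.09 in NT cells, 5.29 to 10.3 after siCTRL#1, 19.7 to 25.3 with siVPS4B#1, 90.4 to 176 with siVPS4A+B#1 and 40.5 to 95.3 with siVPS4A+B#2. COL1A1 had 7.83 to 14.4 in NT cells, 15.6 to 31.4 after siCTRL#1, 33.8 to 61.1 with siVPS4A#1, 22.9 to 41.1 with siVPS4A+B#1 and 51.4 to 85.2 with siVPS4A+B#2. The siVPS4A+B#1 libraries thus overlapped with siCTRL#1, and those of siVPS4A+B#2 with siVPS4A#1. These 3 markers summed to a mean of 19.2 in NT cells and 34.6 after siCTRL#1, and to 169.6 and 120.6 with siVPS4A+B#1 and siVPS4A+B#2. With siVPS4A+B#1 the mean of CD68 was 136 and that of COL1A1 32.8. With siVPS4A+B#2 they had 57.7 ± 25.4 and 62.6 ± 15.6 (SD, n = 4 each), without a clear order. CD68 was called higher with both pairs and with siVPS4B#1, the last call being lost when the library left out was put back. COL1A1 was called with siVPS4A#1 and siVPS4A+B#2, but not with siVPS4A+B#1, where it differed from siCTRL#1 by 0.41 on the log2 scale (limma adjusted p = 0.131). Between siCTRL#1 and NT it differed by 0.92 (limma adjusted p = 0.00242). PECAM1 was called with neither pair. The part of CD68 and COL1A1 in the changes of the genes described here was not tested.

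NRF2, the product of NFE2L2, is kept low in unstressed cells by KEAP1, which presents it to a CUL3 ubiquitin ligase. When oxidants or electrophiles modify KEAP1, or when the autophagy receptor SQSTM1 binds it, NRF2 escapes degradation, pairs with small MAF proteins and activates genes that carry antioxidant response elements. HMOX1 is such a gene, but it also answers to haem through the repressor BACH1 and to other stress pathways, so it can be induced with or without the rest of the NRF2 targets.

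Because several of the genes moved together, the 250 bases upstream of their starts were searched for the core of the antioxidant response element, TGACNNNGC, or GCNNNGTCA when read on the other strand. The windows came from RefSeq on GRCh38.p14. A window was found for 8 of the 10 genes, 11 windows in all, and none for HMOX1 and FTH1. The core was in 4 of the 11 windows, namely those of GCLM and ME1 and both of TXNRD1. It was present in 10.9% of all 35116 windows listed, and in 11.8% of the 14802 windows of genes measured here. Of the other lists described below, further NRF2 targets had it in 4 of 23 windows and NRF2 regulators in 3 of 15. Metallothionein and metal-response genes had it in 3 of 4 windows, a higher share than the 10 genes. It was in 2 of 21 windows of haem and iron genes and 1 of 8 of AP-1 genes. The heat shock and glutathione lists had 0 of 9 and 0 of 10. Both windows printed belong to genes whose libraries of both pairs lay above all 29 others. The same held for GCLC, SRXN1 and SQSTM1, whose windows had no match, while for TXNRD1, with 2 matches, a change was not detectable. Capitals mark the core. That of GCLM is the minus strand of chr1:93909431-93909680, and that of ME1 is the minus strand of chr6:83431052-83431301.
GCLM: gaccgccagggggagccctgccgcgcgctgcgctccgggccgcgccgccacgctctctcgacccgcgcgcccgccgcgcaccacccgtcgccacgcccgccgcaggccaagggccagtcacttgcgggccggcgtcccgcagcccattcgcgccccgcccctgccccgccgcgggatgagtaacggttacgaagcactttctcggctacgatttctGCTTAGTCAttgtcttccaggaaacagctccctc
ME1: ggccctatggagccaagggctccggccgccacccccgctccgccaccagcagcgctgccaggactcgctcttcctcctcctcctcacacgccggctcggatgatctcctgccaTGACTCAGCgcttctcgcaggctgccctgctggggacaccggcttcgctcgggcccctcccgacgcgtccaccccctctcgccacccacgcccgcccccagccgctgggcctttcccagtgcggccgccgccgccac
The first capital lies 34 bases before the listed start of GCLM and 137 bases before that of ME1. A match describes these letters only, and the windows of GCLC, SRXN1, NQO1, SQSTM1 and FTL held none.

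HMOX1 opens the haem ring and releases iron, carbon monoxide and biliverdin. It is listed as NM_002133 and lies on chromosome 22 (plus strand, GRCh37 bases 35776354 to 35790207). The NT libraries had 28.1, 31.0, 39.8 and 30.2 RPM, and the siCTRL#1 libraries 43.1, 41.6, 56.4, 40.3 and 48.6. The highest NT library lay just under the lowest siCTRL#1 library. After siCTRL#2 the level was 55.0, 56.5, 75.3 and 57.9. The siVPS4A#1 libraries had 66.6, 93.6, 96.7 and 102, and the siVPS4A#2 libraries 31.7, 47.1, 57.2 and 49.5. All siVPS4A#1 libraries were above both references, whereas siVPS4A#2 overlapped with both. The level was 63.3, 60.0, 75.8 and 66.0 after siVPS4B#1 and 75.0, 71.4, 90.5 and 61.0 after siVPS4B#2. Each of these 8 libraries was above all NT and siCTRL#1 libraries. The siCTRL#2 libraries, at 55.0 to 75.3, overlapped with siVPS4B#1, siVPS4B#2 and siVPS4A#1, so levels in this range also arose without a VPS4 duplex. In siVPS4A+B#1 the libraries had 288, 165, 481 and 349.7, and in siVPS4A+B#2 2639.9, 4321, 5449 and 3152. Both pairs lay above all 29 other libraries, and the lowest siVPS4A+B#2 library was above the highest of siVPS4A+B#1.

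By its mean, HMOX1 ascended from NT (32.3) over siCTRL#1 (46.0), siVPS4A#2 (46.4), siCTRL#2 (61.2), siVPS4B#1 (66.3), siVPS4B#2 (74.5) and siVPS4A#1 (89.7) to siVPS4A+B#1 (321) and siVPS4A+B#2 (3890.5). Neighbours in this order overlapped in their ranges except at 3 steps, from NT to siCTRL#1, from siVPS4A#1 to siVPS4A+B#1 and from siVPS4A+B#1 to siVPS4A+B#2. In bulk samples a change in the share of cells that express a gene and a change in its RNA per cell cannot be told apart.

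**Figure D1:**
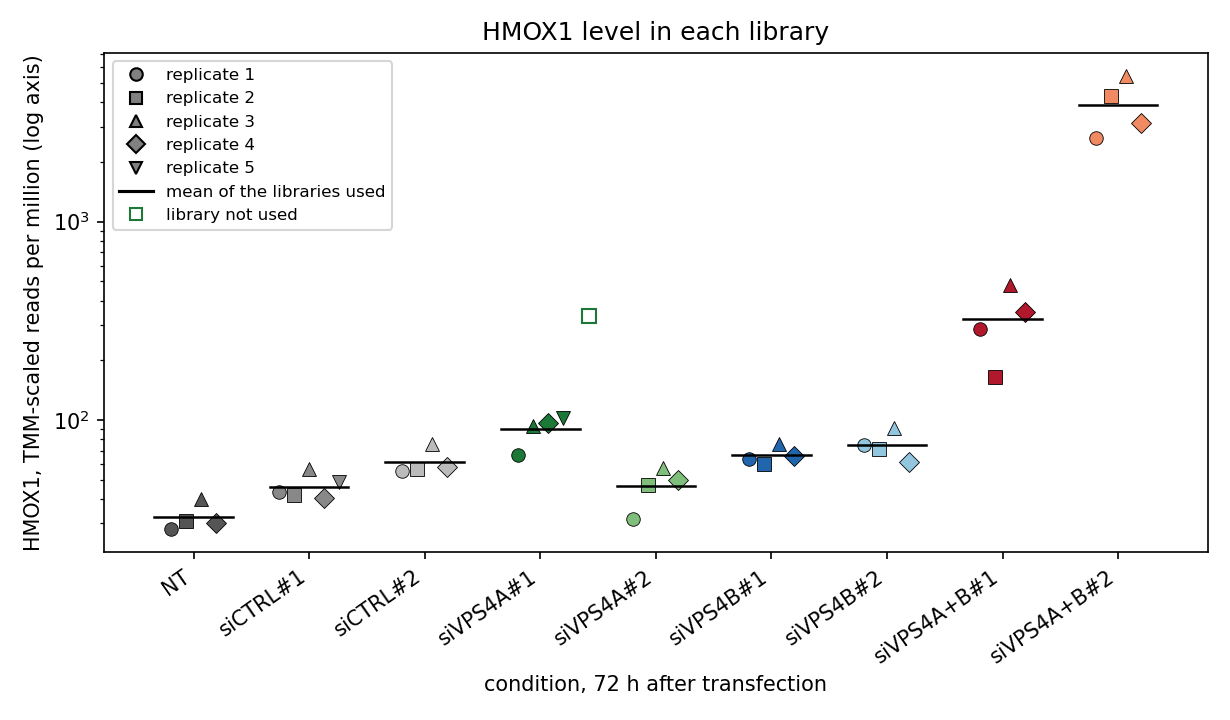
HMOX1 in TMM-scaled RPM on a log axis for each library of the 9 conditions, with the marker giving the replicate number, a bar the mean and an open square the library left out. The 4 siVPS4A+B#1 libraries lie between 165 and 481 and the 4 siVPS4A+B#2 libraries between 2639.9 and 5449.

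Conditions were compared by limma over all 12627 genes, blocked by replicate number and with p adjusted over these genes. A gene was called in a comparison when its fold reached 1.5 in either direction with an adjusted p below 0.05, and called for a condition when this held against both NT and siCTRL#1. All conditions share these controls, and the p-values measure differences relative to the spread between these cultures. After siVPS4A#1, HMOX1 was higher by 1.36 on the log2 scale against NT (standard error 0.17, limma adjusted p = 2.89e-08) and by 0.90 against siCTRL#1 (adjusted p = 1.19e-05). With the library left out put back, these differences were 1.84 and 1.33. After siVPS4A#2 they were 0.49 and 0.03 (limma adjusted p = 0.0355 and 0.987), so that no fold of 1.5 was reached. After siVPS4B#1 the difference was 1.02 against NT and 0.56 against siCTRL#1 (limma adjusted p = 3.84e-06 and 0.00782), and the second missed the fold of 1.5, which it reached without the libraries of replicate 3. After siVPS4B#2 it was 1.18 and 0.72 (limma adjusted p = 6.60e-07 and 0.00177) and was called, but not when the library left out was put back. The combined conditions chose HMOX1, so its values there are given without a test. Its p-values in single silencing rest on the same controls and are not independent of that choice. Its log2 fold change was 3.19 against NT and 2.73 against siCTRL#1 with siVPS4A+B#1, and 6.83 and 6.37 with siVPS4A+B#2.

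GCLM and GCLC form the enzyme that catalyses the first and rate-limiting step of glutathione synthesis, GCLC as the catalytic and GCLM as the modifier subunit. GCLM (NM_002061) lies on chromosome 1 (minus strand, GRCh37 bases 94350755 to 94375012). Untransfected libraries had 18.1, 17.1, 28.1 and 16.2 RPM of GCLM, and siCTRL#1 libraries 16.2, 17.9, 22.5, 15.6 and 18.1. The level was 58.8, 62.8, 87.2 and 101.4 with siVPS4A+B#1, and 118, 173, 183 and 166 with siVPS4A+B#2. All 8 libraries of the pairs stood above the 29 others, and siVPS4A+B#2 stood above siVPS4A+B#1 without overlap. On the log2 scale GCLM changed by 1.91 against NT with siVPS4A+B#1 (standard error 0.18, limma adjusted p = 2.73e-11) and by 2.05 relative to siCTRL#1 (adjusted p = 3.75e-12). For siVPS4A+B#2 it changed by 2.96 and 3.10 (limma adjusted p = 1.06e-16 and 1.77e-17). The 16 libraries of single silencing had 11.7 to 33.3 and overlapped with both controls. Of the single conditions, the largest mean was that of siVPS4B#2, 25.5 ± 6.52 (SD, n = 4), at a log2 fold change of 0.49 against siCTRL#1 (limma adjusted p = 0.054).

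GCLC (NM_001498) lies on chromosome 6 (minus strand, GRCh37 bases 53362139 to 53481768). RPM values of GCLC were 105, 75.0, 78.9 and 82.0 in NT and 74.6, 56.4, 58.9, 71.7 and 58.3 after siCTRL#1. They were 158, 141, 242 and 298 in the siVPS4A+B#1 libraries and 255, 283, 263 and 256 in those of siVPS4A+B#2. Again all 8 libraries of the pairs were above the 29 others, while the pairs overlapped with each other. Log2 fold changes of GCLC for siVPS4A+B#1 were 1.24 against NT and 1.62 against siCTRL#1 (standard error 0.16 for the first, limma adjusted p = 3.86e-08 and 5.38e-11). Those for siVPS4A+B#2 were 1.63 and 2.02 (limma adjusted p = 4.44e-11 and 1.03e-13). Single silencing gave 51.7 to 80.5, within the range of the NT and siCTRL#1 libraries apart from the lowest, a siVPS4A#1 library.

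SRXN1 (sulfiredoxin) and TXNRD1 (thioredoxin reductase) restore oxidised thiols of peroxiredoxins and of thioredoxin. SRXN1 (NM_080725) lies on chromosome 20 (minus strand, GRCh37 bases 627259 to 633844). In NT cells SRXN1 had 65.5, 58.5, 47.6 and 61.8 RPM, and after siCTRL#1 73.2, 76.3, 72.3, 79.4 and 69.6. The first pair, siVPS4A+B#1, gave 392, 190.0, 271 and 231, and the second, siVPS4A+B#2, gave 224, 229, 204 and 221. All 8 libraries of the pairs were above the 29 others, and those of siVPS4A+B#2 lay within the range of siVPS4A+B#1. Relative to NT the log2 fold change was 2.15 with siVPS4A+B#1 (standard error 0.16, limma adjusted p = 1.96e-14) and 1.90 with siVPS4A+B#2 (adjusted p = 5.81e-13). Relative to siCTRL#1 it was 1.81 and 1.56 (limma adjusted p = 2.27e-12 and 6.03e-11). The siVPS4A#1 libraries had 45.4, 47.8, 41.6 and 49.5, all below the siCTRL#1 libraries and overlapping with NT. Against siCTRL#1 SRXN1 was lower there (-0.69 on the log2 scale, limma adjusted p = 0.000267), whereas against NT it was not called (-0.35, adjusted p = 0.0919). With the library left out put back, these values were -0.26 and 0.13 (limma adjusted p = 0.42 and 0.737), so that the second changed its sign and the first was not called.

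TXNRD1, listed as NM_001093771, was counted 0 to 8 times in each library, the median being 4 reads. It was at or under the floor of 3 reads in 16 of 37 libraries and at 0 in 1 of them, so no fold change is given. Whether the amplicon of this transcript stands for the gene as a whole was not tested. The largest level, 1.25 RPM in a siVPS4A+B#1 library, came from the same range of reads, and a change was not detectable from so few reads. Each of the other 9 genes had a mean level of 1 or more. The floor reflects sampling of reads alone, and amplification adds variation that it does not cover.

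NQO1 reduces quinones with NADPH or NADH, and ME1 (malic enzyme) supplies NADPH in the cytosol. NQO1 (NM_000903) lies on chromosome 16 (minus strand, GRCh37 bases 69740899 to 69760571). Levels of NQO1 were 292, 321, 313 and 299 RPM in NT and 394, 297, 302, 364 and 265 after siCTRL#1. Combined silencing gave 504, 478, 539.7 and 499 with siVPS4A+B#1 and 1038, 1043, 933 and 812 with siVPS4A+B#2. The pairs were above both controls and did not overlap with each other. NQO1 was up in siVPS4A+B#1 by 0.72 on the log2 scale against NT (standard error 0.12, limma adjusted p = 7.16e-06) and by 0.63 relative to siCTRL#1 (adjusted p = 4.67e-05). The values for siVPS4A+B#2 were 1.63 and 1.55 (limma adjusted p = 3.93e-14 and 1.09e-13). Its siVPS4A+B#1 value no longer reached the fold of 1.5 against siCTRL#1 under scaling by total reads (0.45) or without the libraries of replicate 3 (0.57). Among the single conditions, the siVPS4B#2 libraries had 690.0, 676, 471 and 624. All of them were above the controls, and 3 of 4 were above every siVPS4A+B#1 library. The log2 fold change with siVPS4B#2 was 0.99 against NT (limma adjusted p = 7.58e-08) and 0.90 against siCTRL#1 (adjusted p = 9.65e-07). The other single conditions ranged from 233 to 372. After the second non-targeting duplex, siCTRL#2, NQO1 fell to 140.1, 138, 130.0 and 135, below all other libraries.

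ME1 (NM_002395) lies on chromosome 6 (minus strand, GRCh37 bases 83920121 to 84140770). For ME1 the NT libraries held 46.0, 35.6, 55.7 and 46.1 RPM, and those of siCTRL#1 32.5, 43.8, 43.4, 27.5 and 52.1. Values were 70.5, 103, 166 and 108 for siVPS4A+B#1 and 107, 152, 260.2 and 242 for siVPS4A+B#2. The lowest siVPS4A+B#1 library, at 70.5, lay barely above the highest of the 29 other libraries, and the pairs overlapped. Compared with NT, ME1 had a log2 fold change of 1.22 with siVPS4A+B#1 (standard error 0.20, limma adjusted p = 3.85e-06) and of 1.96 with siVPS4A+B#2 (adjusted p = 1.34e-10). Compared with siCTRL#1, the values were 1.52 and 2.26 (limma adjusted p = 4.23e-08 and 2.16e-12). Single silencing gave 28.6 to 70.5 and overlapped with both controls.

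SQSTM1 encodes p62, an autophagy receptor that binds KEAP1 and is itself an NRF2 target. It is listed as NM_003900 and lies on chromosome 5 (plus strand, GRCh37 bases 179233398 to 179265078). Among controls SQSTM1 had 619, 602, 678 and 545 RPM in NT and 554, 543, 818, 584 and 603 after siCTRL#1. Cells with siVPS4A+B#1 had 5224, 4238, 7133 and 7334, and cells with siVPS4A+B#2 had 5602, 6902, 8774 and 4756. Each of the 8 libraries was above all 29 others, and the pairs overlapped with each other. These levels gave log2 fold changes for siVPS4A+B#1 of 3.26 against NT and 3.25 against siCTRL#1 (standard error 0.15 for the first, limma adjusted p = 1.57e-20 and 1.08e-20). In siVPS4A+B#2 they came to 3.38 and 3.37 (limma adjusted p = 5.12e-21 and 2.11e-21). After siVPS4B#1 the libraries had 804, 863, 1082 and 957, and after siVPS4A#1 742, 939.5, 952 and 927. All NT libraries were below these, while the highest siCTRL#1 library lay among them. The siCTRL#2 libraries had 507, 775, 918 and 784, and overlapped with both siVPS4B#1 and siVPS4A#1. With siVPS4B#1 SQSTM1 was just past the fold of 1.5, at 0.60 against NT and 0.59 against siCTRL#1 (limma adjusted p = 0.00155 and 0.00222), and this call was made in 8 of 13 other settings. With siVPS4A#1 it was just short of it, at 0.52 and 0.52 (limma adjusted p = 0.00733 and 0.00362). With the library left out put back, the values for siVPS4A#1 were 1.19 and 1.11.

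FTL and FTH1 encode the light and heavy chains of ferritin, which stores iron. FTL (NM_000146) lies on chromosome 19 (plus strand, GRCh37 bases 49468566 to 49470136). The control libraries had 1433, 2265, 2841 and 1848 RPM of FTL in NT and 2517, 3163, 3995, 2176 and 3339 after siCTRL#1. After combined silencing FTL was at 9849, 6747, 8841 and 8269.8 with siVPS4A+B#1 and at 7554, 8170.3, 7194 and 5225 with siVPS4A+B#2. The pairs were above both controls and overlapped with each other, and 1 siVPS4A+B#2 library lay within the range of siVPS4B#2. Against NT FTL had log2 fold changes of 2.04 for siVPS4A+B#1 and 1.77 for siVPS4A+B#2 (standard error 0.21 for the first, limma adjusted p = 1.87e-10 and 4.51e-09). Against siCTRL#1 they were 1.55 and 1.28 (limma adjusted p = 8.14e-08 and 1.86e-06). The siVPS4B#2 libraries had 4683, 4012, 5553 and 5100.2, all above the siCTRL#1 libraries. There the log2 fold change was 1.24 against NT and 0.75 against siCTRL#1 (limma adjusted p = 1.82e-05 and 0.0103), and the call was lost without the libraries of replicate 1 and when the library left out was put back. The siCTRL#2 libraries were the lowest, with 776, 1307, 1125 and 1367.

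FTH1 (NM_002032) lies on chromosome 11 (minus strand, GRCh37 bases 61727190 to 61735106). NT libraries contained 2668, 2525, 3064 and 2442 RPM of FTH1, and siCTRL#1 libraries 2216, 2209, 2689, 2459.7 and 2163. FTH1 stood at 2523, 2577, 4686 and 4289 with siVPS4A+B#1 and at 8776, 10292, 14665 and 9961 with siVPS4A+B#2. In siVPS4A+B#1, 2 libraries lay among the controls and 2 above them, whereas all 4 siVPS4A+B#2 libraries were above every other library. The log2 fold change of FTH1 in siVPS4A+B#1 was 0.34 against NT (standard error 0.17, limma adjusted p = 0.0969) and 0.53 relative to siCTRL#1 (adjusted p = 0.00872). In siVPS4A+B#2 it was 2.01 and 2.20 (limma adjusted p = 9.11e-13 and 4.65e-14). The siVPS4A+B#1 value was thus not called. The siVPS4A#1 libraries had 2878, 3585, 6079 and 4446. Of these, 3 were above all NT and siCTRL#1 libraries, and the lowest was not. The siVPS4B#2 libraries had 3044, 4198, 3789.8 and 3195, also with 3 above all NT and siCTRL#1 libraries, and differed by 0.40 from NT and 0.59 from siCTRL#1 (limma adjusted p = 0.0672 and 0.0113), which was not called. The siCTRL#2 libraries had 2404 to 3301 and overlapped with both siVPS4A#1 and siVPS4B#2. The log2 fold change with siVPS4A#1 was 0.60 against NT and 0.79 against siCTRL#1 (limma adjusted p = 0.00574 and 0.00011), and the call was lost without the libraries of replicate 4 or of replicate 5. The annotation of GRCh37 lists 16 pseudogenes of FTL and 25 of FTH1, and the deposited table does not separate reads that such copies could give.

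**Figure D2:**
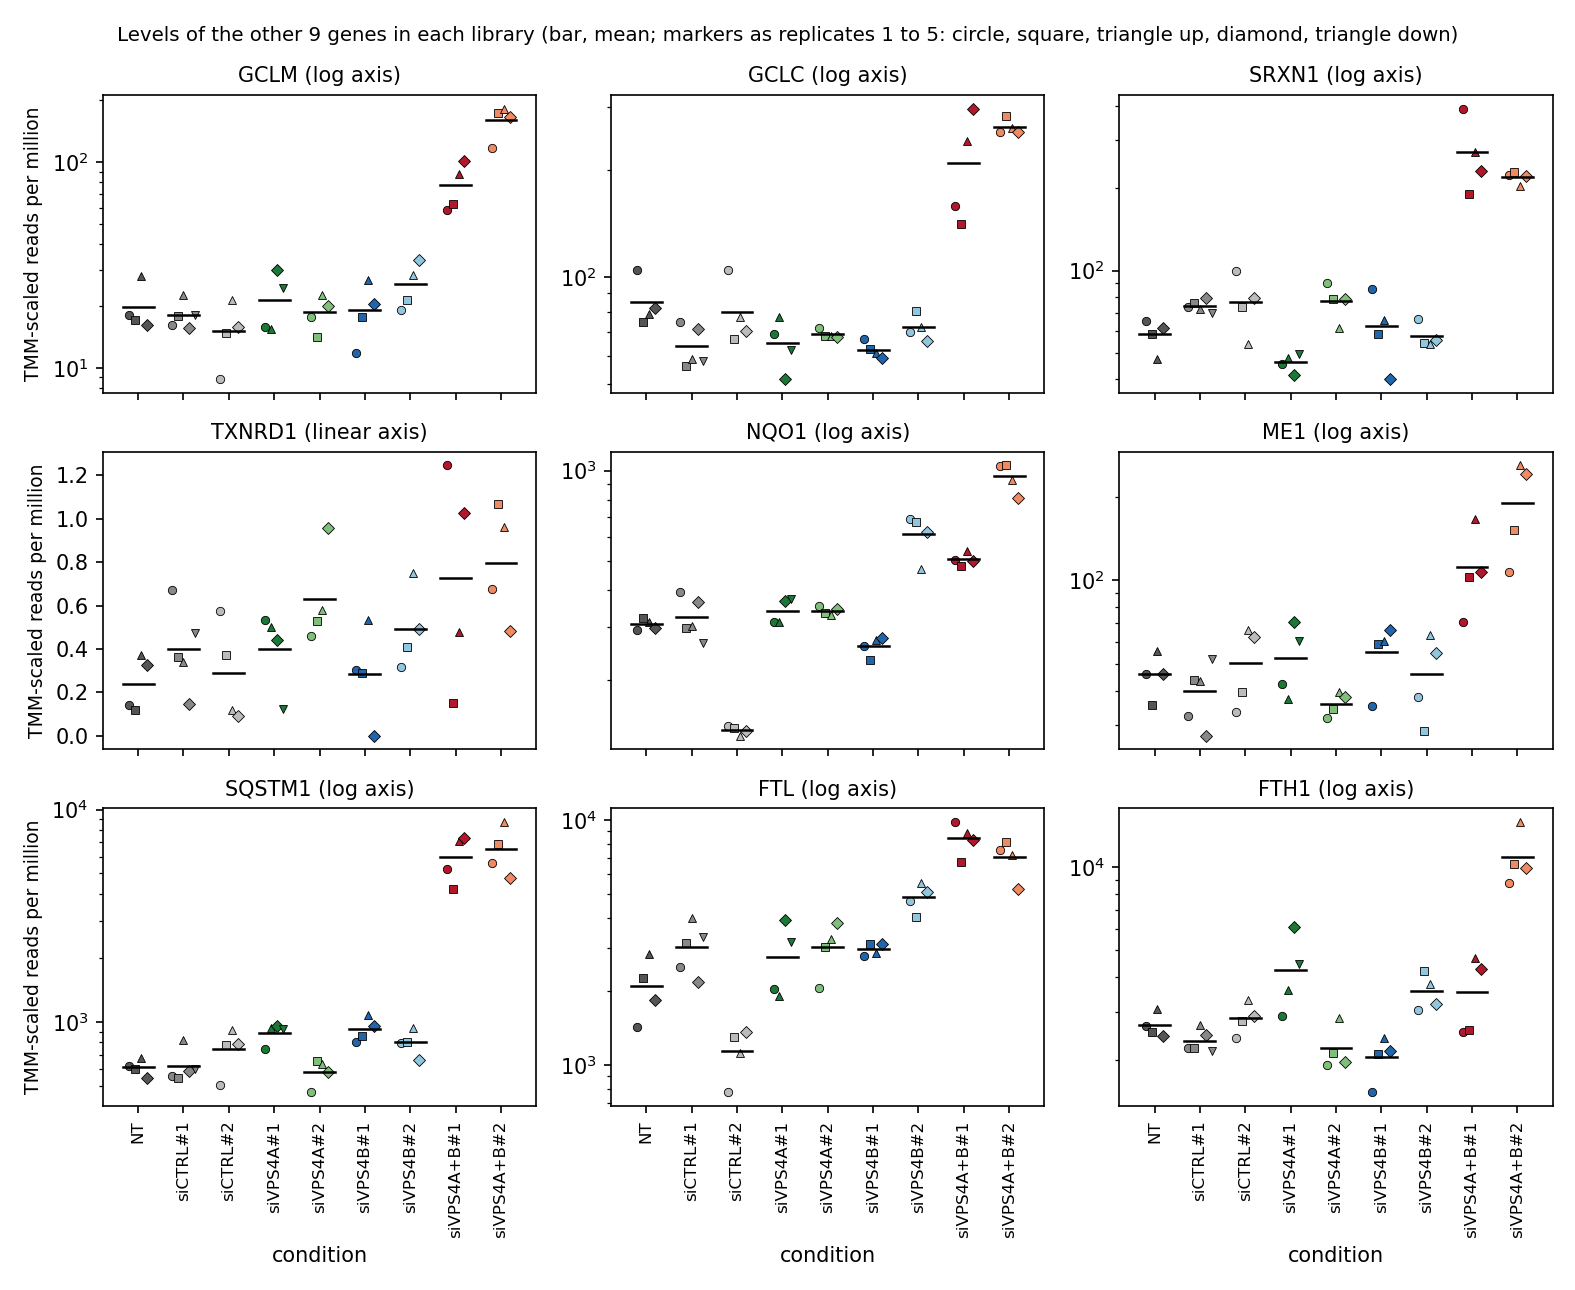
TMM-scaled RPM in each library for the 9 other genes, on log axes except for TXNRD1, with a bar for the mean of each condition and marker shapes for the replicate number. FTH1 is highest with siVPS4A+B#2 (8776 to 14665), and NQO1 and FTL are lowest with siCTRL#2 (130.0 to 140.1 and 776 to 1367).

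Counted over the 10 genes, 8 were called higher with siVPS4A+B#1, against 7.39% of all genes, and 0 lower, against 7.3%. They were HMOX1 and 7 of the 9 targets, without FTH1 and TXNRD1. For siVPS4A+B#2 the count was 9 higher, against 8.1% of all genes, and 0 lower, against 10.9%, with TXNRD1 alone not called. The counts of 0 lower with limma were also 0 at an unadjusted p under 0.05 and by edgeR and DESeq2, for both pairs. HMOX1 thus did not rise alone in either pair. Since the combined conditions chose HMOX1, it adds nothing to these counts. The 9 others were chosen when earlier results of these data were known, so their counts describe this choice of genes. Of the 9 genes other than HMOX1, 6 had all 4 siVPS4A+B#1 libraries above the 29 others, against 2.35% of all genes, and 7 had all 4 siVPS4A+B#2 libraries above them, against 2.93%. The median log2 fold change of 8 genes, leaving out HMOX1 for its selection and TXNRD1 for its few reads, was taken as the mean over both controls. It was 1.61 with siVPS4A+B#1 and 1.96 with siVPS4A+B#2, where the medians of all genes were -0.03 and -0.02. Under scaling by total reads the medians of all genes shifted to -0.14 and -0.10.

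In single silencing the counts were small. With siVPS4A#1, HMOX1 and FTH1 were called higher, 2 of 10 against 5.73% of all genes, and 0 lower against 8.85% (limma, with 3 higher and 1 lower at an unadjusted p under 0.05, and the counts 2 and 0 by edgeR and DESeq2 as well). With siVPS4A#2 0 genes were called in either direction, against 0% of all genes higher and 0.0317% lower (limma, also 0 and 0 at an unadjusted p under 0.05 and by edgeR and DESeq2). With siVPS4B#1 SQSTM1 was called higher, 1 of 10 against 3.7%, and 0 lower against 5.23% (limma, with 2 and 0 at an unadjusted p under 0.05, and 1 and 0 by edgeR and DESeq2). With siVPS4B#2 HMOX1, NQO1 and FTL were called higher, 3 of 10 against 1.45%, and 0 lower against 2.36% (limma, with 5 and 0 at an unadjusted p under 0.05, and 3 and 0 by edgeR and DESeq2). GCLM, GCLC, SRXN1 and ME1 were in none of these 4 counts. HMOX1, in the counts of siVPS4A#1 and siVPS4B#2, was selected on pairs that share the same NT and siCTRL#1 controls. Its calls here are thus not independent of that choice. Put back, the library left out changed the counts of genes called higher to 3, 0, 0 and 1 in the same order of conditions. The medians over the 8 genes other than HMOX1 and TXNRD1 were 0.10, -0.04, -0.06 and 0.40 on the log2 scale, and those of all genes were 0.01, 0.00, 0.00 and 0.00.

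**Figure D3:**
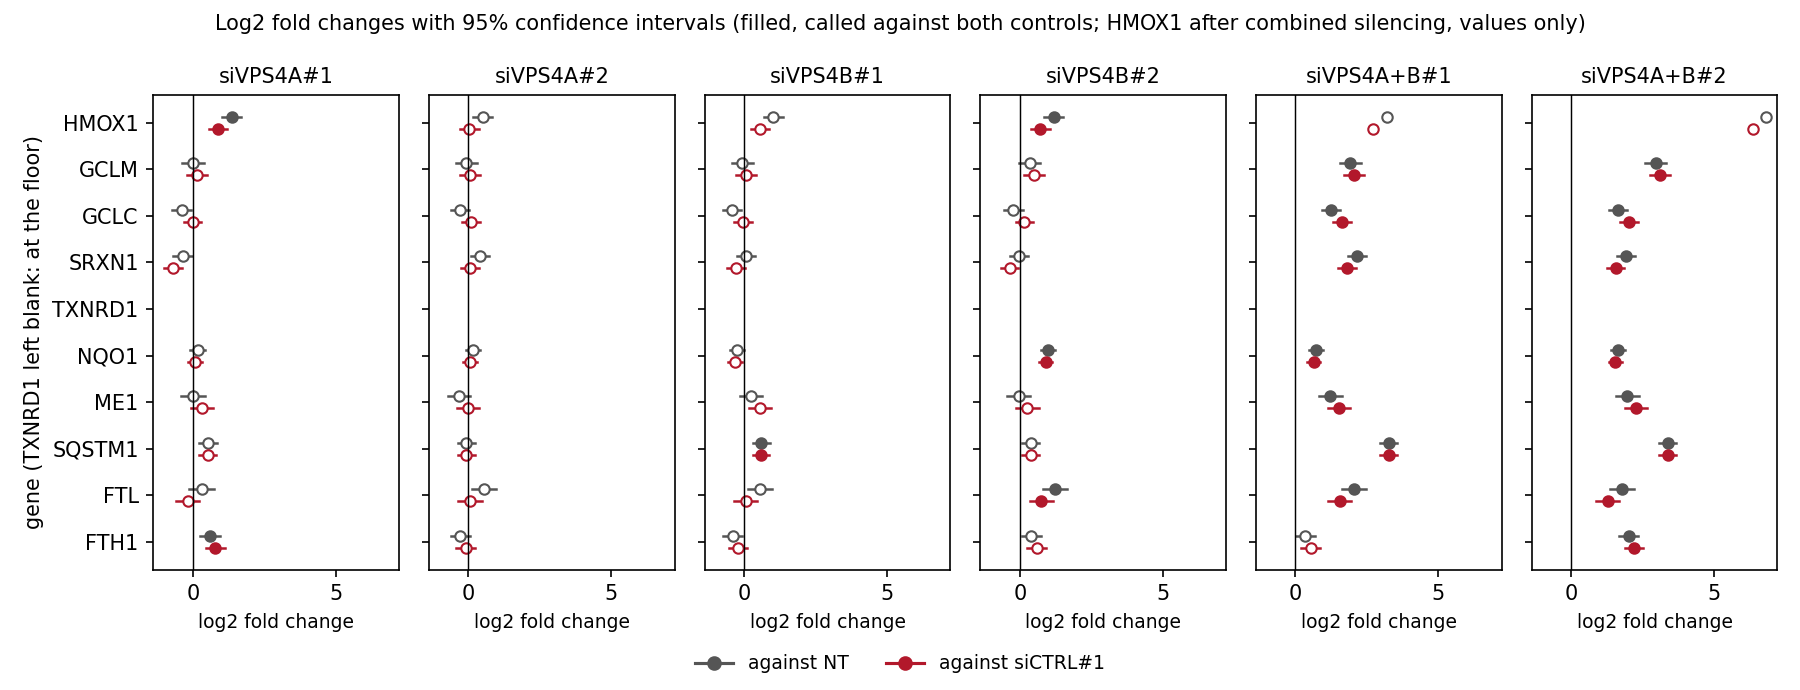
Log2 fold changes against NT (grey) and siCTRL#1 (red) with 95% confidence intervals for each silenced condition, filled where a gene was called against both controls. HMOX1 after combined silencing is drawn as values without intervals, from 2.73 to 6.83, and the blank line of TXNRD1 marks reads at the floor.

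Each pair was compared with the single silencings by its own duplexes, to ask what the second duplex added. VPS4A itself was higher with siVPS4A+B#1 than with siVPS4A#2, by 1.13 on the log2 scale (limma adjusted p = 0.000107). It was also higher with siVPS4A+B#2 than with siVPS4A#1, by 0.87 (limma adjusted p = 0.00527). A VPS4B duplex added and this weaker VPS4A silencing cannot be told apart here. Relative to siVPS4A#2, siVPS4A+B#1 had 8 of the 10 genes called higher, against 11.4% of all genes, and relative to siVPS4B#1 it had 9, against 4.85%. Relative to siVPS4A#1, siVPS4A+B#2 had 9 called higher, against 8.55% of all genes, and 0 lower, against 8.93%. Relative to siVPS4B#2 it had 8 higher, against 11.8%. HMOX1, selected on its rise in the pairs, is 1 gene of each count and adds nothing to it. The genes not called were TXNRD1 in all 4 comparisons, NQO1 in the first (0.57 on the log2 scale, limma adjusted p = 0.00025) and FTL in the last (0.53, limma adjusted p = 0.0376). Of 13 other settings, NQO1 was called there in 4, among them the fit with the library left out put back and DESeq2, and FTL in 1. The counts of 8 were each 7 to 9 when the libraries of a replicate number were left out. None of the 10 was called lower in these 4 comparisons by limma, nor at an unadjusted p under 0.05, nor by edgeR or DESeq2. Of all genes, limma called 12.1% lower against siVPS4A#2, 5.04% against siVPS4B#1 and 13.9% against siVPS4B#2. FTH1 passed against siVPS4A#2 at 0.63 (limma adjusted p = 0.00258), but not under scaling by total reads or without the libraries of replicate 4. NQO1 passed against siVPS4B#2 at 0.65 (limma adjusted p = 4.05e-05), but not under scaling by total reads or without those of replicate 3.

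The interaction subtracts both single effects, taken against siCTRL#1, from the effect of the pair, so that 0 stands for effects that add up on the log2 scale. For siVPS4A+B#1 it was called positive for 9 of the 10 genes, against 3.82% of all genes. For siVPS4A+B#2 it was called positive for 7, against 9.64%, and negative for 0, against 8.63%, with HMOX1 again 1 gene of each positive count. With siVPS4A+B#1 it was negative for 0 of the 10 by limma, where only 2.38% of all genes were, and for both pairs this count was also 0 at an unadjusted p under 0.05 and by edgeR and DESeq2. SQSTM1 had 2.74 (standard error 0.21, limma adjusted p = 7.40e-13) and 2.47 (adjusted p = 9.88e-12). SRXN1 had 2.04 and 2.61 (limma adjusted p = 1.15e-08 and 8.65e-12), and GCLM 1.92 and 2.46 (adjusted p = 1.15e-06 and 1.37e-09). GCLC had 1.56 and 1.86 (limma adjusted p = 4.22e-06 and 4.57e-08). NQO1 and FTL passed with siVPS4A+B#1, at 0.90 and 1.43 (limma adjusted p = 0.000476 and 0.00109), whereas with siVPS4A+B#2 they had 0.56 and 0.70 (adjusted p = 0.0139 and 0.079). These 2 calls moved as well, since NQO1 was called for siVPS4A+B#2 without the libraries of replicate 2, 4 or 5, and FTL without those of replicate 4. The count of 7 was 6 to 9 when a replicate number was left out, and that of 9 was 7 to 9. With the library left out put back, NQO1 and FTL had 0.50 and 0.40 for siVPS4A+B#2 (limma adjusted p = 0.0508 and 0.514). Whether the interactions of the 2 pairs differ was not tested.

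ME1 had interactions of 1.00 and 1.68 (limma adjusted p = 0.0202 and 1.87e-05), and FTH1 of 0.84 and 0.81 (adjusted p = 0.0206 and 0.0103). These smaller ones moved with the setting. The call of ME1 for siVPS4A+B#1 was made in 7 of 13 other settings, that of FTH1 in 9 of 13, both being lost without the replicate block, and that of FTH1 for siVPS4A+B#2 in 11 of 13. With the library left out put back, the values for siVPS4A+B#2 were 1.90 for SQSTM1, 2.20 for SRXN1, 2.00 for GCLM, 1.43 for GCLC and 1.43 for ME1. HMOX1, selected on its rise in the pairs, had 2.13 and 4.75 as a description, and 4.33 for siVPS4A+B#2 with the library put back.

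**Figure D4:**
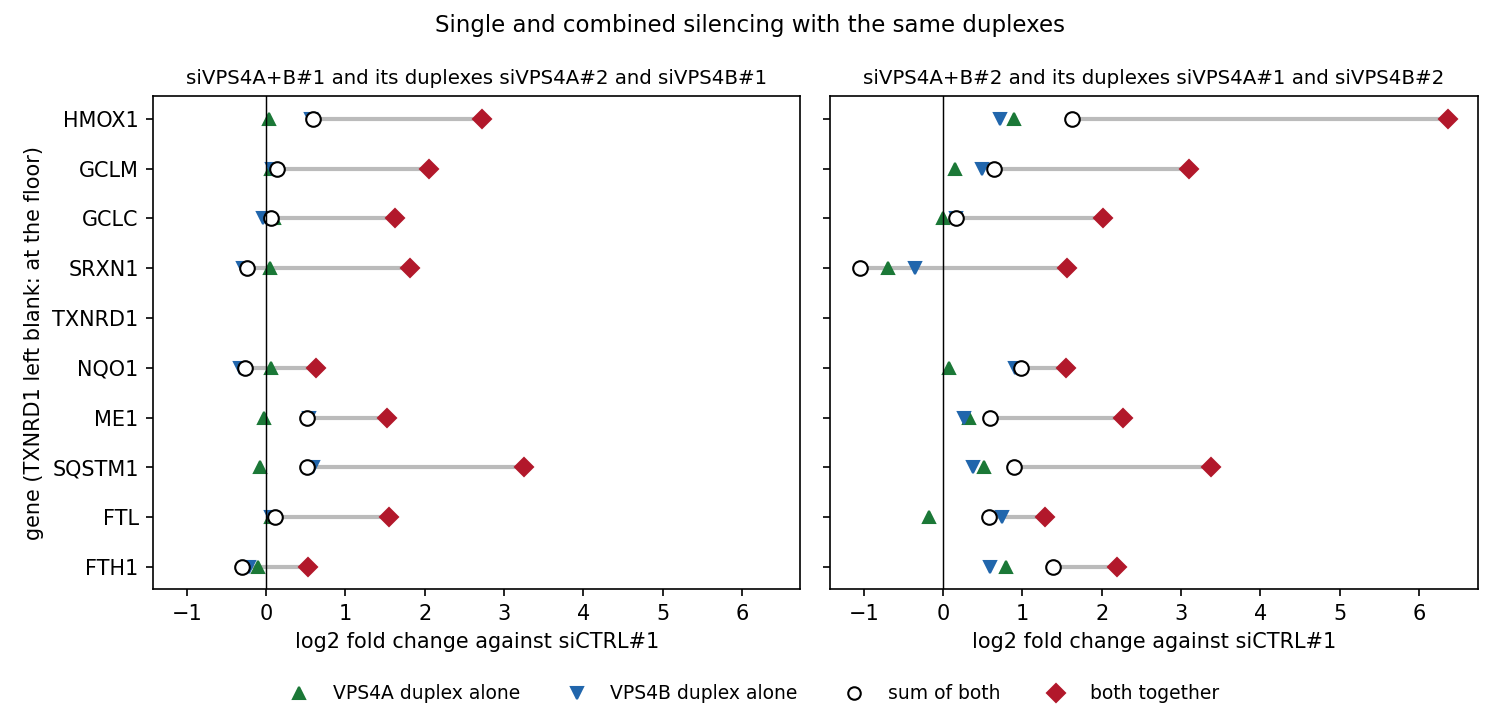
Log2 fold changes against siCTRL#1 of each duplex alone (triangles), their sum (open circles) and the pair (diamonds), with siVPS4A+B#1 on the left and siVPS4A+B#2 on the right. The diamond lies to the right of the open circle for every gene drawn, by 0.56 to 4.75, TXNRD1 being left blank at the floor.

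The pairs were then compared directly. With siVPS4A+B#2, 5 of the 10 genes were called higher than with siVPS4A+B#1, against 7.53% of all genes, and 0 lower, against 9.92% (limma, with 6 and 0 at an unadjusted p under 0.05, and 5 and 0 by edgeR and DESeq2). FTH1 was higher by 1.66 on the log2 scale (standard error 0.17, limma adjusted p = 3.66e-10), GCLM by 1.05 (adjusted p = 1.84e-05), NQO1 by 0.91 (adjusted p = 1.73e-07) and ME1 by 0.74 (adjusted p = 0.00393). HMOX1 differed by 3.64, or 12.5-fold, as a description. SQSTM1 differed by 0.12 (95% confidence interval -0.18 to 0.42), SRXN1 by -0.25 (-0.57 to 0.06), FTL by -0.27 (-0.69 to 0.15) and GCLC by 0.40 (0.08 to 0.72), none of which was called. GCLC was called here without the libraries of replicate 4, and the count of 5 was 5 to 6 when a replicate number was left out. The step of HMOX1 from the first pair to the second was the largest of these 9 values, but differences between genes in this step were not tested.

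The controls show how far the genes move without a VPS4 duplex. Between siCTRL#1 and NT, 0 of the 10 genes were called higher, against 4.84% of all genes, and 0 lower, against 4.21% (limma, with 3 higher and 1 lower at an unadjusted p under 0.05, and 0 by edgeR and DESeq2). HMOX1 was higher by 0.46 on the log2 scale with siCTRL#1 (limma adjusted p = 0.04), under the fold of 1.5. Between siCTRL#2 and siCTRL#1, 0 genes were called higher, against 5.84% of all genes, and 2 lower, against 11% (limma, with 2 and 2 at an unadjusted p under 0.05, and 0 and 2 by edgeR and DESeq2). The lower genes were NQO1 (-1.26 on the log2 scale, limma adjusted p = 6.42e-11) and FTL (-1.35, adjusted p = 1.50e-06), with no overlap between the groups for either. HMOX1 was higher with siCTRL#2 by 0.44 (limma adjusted p = 0.0313), also under that fold. Differences of NQO1 and FTL of this size thus arose without a VPS4 duplex, and the non-targeting duplex and its dose cannot be told apart here.

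Of a wider list of 25 further NRF2 targets, 21 were measured, and AKR1C1, CBR1, GPX2 and TRIM16L were not analysed here. The first pair, siVPS4A+B#1, had 6 of them called higher, against 7.39% of all genes, and 0 lower, against 7.3% (limma, with 11 and 0 at an unadjusted p under 0.05, 7 and 0 by edgeR and 9 and 0 by DESeq2). The second, siVPS4A+B#2, had 12 higher, against 8.1%, and 0 lower, against 10.9% (limma, with 14 and 1 at an unadjusted p under 0.05, and 12 and 0 by edgeR and DESeq2). Under scaling by total reads the second count was 7, and without a replicate number the counts were 5 to 9 and 8 to 12. The medians of the 21 log2 fold changes, as means over both controls, were 0.42 and 0.74. Called in both pairs were GSR, which regenerates glutathione, the reductases AKR1B10 and AKR1C3, OSGIN1 and ABHD4. OSGIN1 was higher with siVPS4A+B#1 by 2.37 against NT and 1.77 against siCTRL#1 (limma adjusted p = 4.25e-12 and 4.85e-09). AKR1C genes have near-identical copies, so their reads are uncertain as to the gene. The calls of AKR1B10 rest on few reads, 6 to 35 per library with siVPS4A+B#1 and 10 to 25 with siVPS4A+B#2, while NT libraries had 0 to 1 and siCTRL#1 libraries 0 to 4.

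TXN was called with siVPS4A+B#1 and not with siVPS4A+B#2, and the reverse held for PGD, TKT, PRDX1, ABCC3, AKR1C2, SLC48A1 and BLVRB. Of these 8, PRDX1 and SLC48A1 were called in the direct comparison of the pairs, where siVPS4A+B#2 was higher by 0.73 and 0.88 (limma adjusted p = 0.000266 and 0.000223). TKT and BLVRB differed there by 0.16 and 0.06 (limma adjusted p = 0.499 and 0.8). Over the 21 genes, this comparison called 2 higher and 3 lower with siVPS4A+B#2, by limma, edgeR and DESeq2 alike. Of all genes, limma called 7.53% higher and 9.92% lower, so both counts are near these shares. Mean levels of ABHD4, EPHX1 and ABCC2 were 49.7, 136 and 74.0 RPM with siVPS4A+B#1. They were lower with siVPS4A+B#2, at 24.0, 76.4 and 44.7. For BLVRB the libraries had 306 to 400.1 RPM with siVPS4A+B#1 and 349 to 382 with siVPS4A+B#2, all above both controls. The other 8 of the 21 genes, SLC7A11, ABCC2, TALDO1, CBR3, EPHX1, UGDH, PIR and MGST1, were called with neither pair by limma. AKR1C2 lay near the floor of 3 reads, with 2 to 8 reads per siVPS4A+B#2 library and 0 to 2 in NT and siCTRL#1, so its call is uncertain.

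In single silencing the 21 genes gave 3 higher and 2 lower with siVPS4A#1, 0 and 0 with siVPS4A#2 (limma, with 1 and 1 at an unadjusted p under 0.05, 0 and 0 by edgeR and 0 and 1 by DESeq2), 2 and 1 with siVPS4B#1, and 0 and 1 with siVPS4B#2 (limma, with 0 and 2 at an unadjusted p under 0.05, 0 and 1 by edgeR and 0 and 0 by DESeq2). Of all genes, 5.73% were higher and 8.85% lower with siVPS4A#1, 0% and 0.0317% with siVPS4A#2, 3.7% and 5.23% with siVPS4B#1, and 1.45% and 2.36% with siVPS4B#2, so that the 2 lower genes of 21 with siVPS4A#1 and the 1 with siVPS4B#1 are near the share of all genes. ABCC2, ABCC3 and AKR1C3 were the higher genes with siVPS4A#1, and ABCC2 and AKR1C3 those with siVPS4B#1. ABCC2, an exporter of conjugates, had 70.5 to 105 RPM with siVPS4A#1, above NT (38.9 to 55.2) and siCTRL#1 (27.9 to 49.7). PRDX1, a peroxiredoxin, was lower with siVPS4A#1, at 4.48 to 7.41 RPM against 11.1 to 18.3 in NT and 9.09 to 16.1 with siCTRL#1. The siCTRL#2 libraries had 4.90, 4.36, 7.91 and 6.48, so levels this low also arose without a VPS4 duplex. The log2 fold change of PRDX1 against siCTRL#1 was -0.93 with siVPS4A#1 and 0.93 with siVPS4A+B#2 (limma adjusted p = 2.18e-06 and 2.40e-06). PRDX1 is listed as NM_001202431, and whether the amplicon of this transcript stands for the whole gene was not tested. SLC7A11, the cystine transporter, was lower with siVPS4A#1, siVPS4B#1 and siVPS4B#2, the last call being lost when the library left out was put back. Against siCTRL#1 its log2 fold change was -2.28 with siVPS4A#1, -1.75 with siVPS4B#1 and -1.16 with siVPS4B#2 (limma adjusted p = 1.20e-10, 3.50e-07 and 0.000587). In the pairs it was -0.34 and 0.10 (limma adjusted p = 0.266 and 0.749), and SLC7A11 was among the targets not called there.

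Of 9 regulators and partners of NRF2, 8 were measured, and MAFG was not analysed here. KEAP1, MAFF and MAFK were called higher with siVPS4A+B#1, and 0 genes lower (limma, with 3 and 0 at an unadjusted p under 0.05 and by edgeR and DESeq2). MAFK was higher with siVPS4A+B#2, and 0 genes lower (limma, with 1 and 3 at an unadjusted p under 0.05, and 1 and 0 by edgeR and DESeq2). The mRNA of NRF2 itself, NFE2L2, had 186 ± 73.5 (SD, n = 4) RPM in NT cells and 142 ± 28.5 (SD, n = 5) after siCTRL#1. Its level was 159.7 ± 34.0 (SD, n = 4) with siVPS4A+B#1 and, for siVPS4A+B#2, 115 ± 11.4 (SD, n = 4). Its log2 fold change against siCTRL#1 was 0.20 and -0.26 (limma adjusted p = 0.366 and 0.21), and against NT -0.17 and -0.62 (adjusted p = 0.462 and 0.00274), so that with siVPS4A+B#2 it passed as lower against NT but not against siCTRL#1. The repressor BACH1 had 0.52 with siVPS4A+B#1 and -0.53 with siVPS4A+B#2 against siCTRL#1 (limma adjusted p = 0.0431 and 0.033), and 0.26 and -0.80 against NT (adjusted p = 0.348 and 0.00215), not called against both in either. Directly compared, BACH1 differed between siVPS4A+B#2 and siVPS4A+B#1 by -1.06 on the log2 scale (limma adjusted p = 0.000176). MAFF had 14 to 24 reads per library with siVPS4A+B#1 and 3 to 11 with siVPS4A+B#2, where NT had 3 to 14 and siCTRL#1 3 to 9, so its call is uncertain. The activity of the NRF2 protein was not measured.

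Genes of other responses that can include HMOX1 were counted in the same way. Beside the counts of these lists and of the regulators stand the shares of all genes, 7.39% higher and 7.3% lower with siVPS4A+B#1 and 8.1% and 10.9% with siVPS4A+B#2. The lower genes BLVRA (1 of 15), FOS (1 of 8) and CAT (1 of 8) with siVPS4A+B#2 are near the last share. Of 15 genes of haem and iron handling, HMOX2, BLVRA and TFRC were higher and 0 lower with siVPS4A+B#1 (limma, with 4 and 0 at an unadjusted p under 0.05, and 3 and 0 by edgeR and DESeq2). HMOX2 and PCBP1 were higher and BLVRA lower with siVPS4A+B#2. BLVRA, biliverdin reductase, acts after haem oxygenase, and it differed between the pairs by -1.53 (limma adjusted p = 1.80e-12). Of 8 metallothionein and metal-response genes, 6 were measured, and MT1G and MT1M were not analysed here. Of the 6, MT1E and MT2A were higher and 0 lower with siVPS4A+B#1 (limma, with 3 and 0 at an unadjusted p under 0.05, and 2 and 0 by edgeR and DESeq2). MTF1 was higher and MT1F and MT1X lower with siVPS4A+B#2, while MT1E, MT1X and MT2A were higher with siVPS4B#1 given without a VPS4A duplex. MT1X had 40.0 to 54.6 RPM with siVPS4A+B#2, 77.3 to 124 with siCTRL#1 and 22.5 to 47.8 with siCTRL#2. For MT1F these ranges were 8.06 to 12.7, 13.7 to 27.1 and 9.83 to 14.8. Low levels of both genes thus also arose without a VPS4 duplex. MT2A, which binds metal ions, differed between the pairs by -1.67 (limma adjusted p = 8.46e-10), the opposite direction of HMOX1. Metallothionein genes are near-identical in sequence, so these values are uncertain as to the gene.

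Of 7 heat shock genes, 0 were called in either direction with siVPS4A+B#1 (limma, with 4 higher and 1 lower at an unadjusted p under 0.05, and 0 by edgeR and DESeq2). HSPA1A, HSPA1B, HSPA8 and DNAJB1 were higher with siVPS4A+B#2, and 0 lower (limma, with 5 and 0 at an unadjusted p under 0.05, and 4 and 0 by edgeR and DESeq2). HSPA1A and HSPA1B were also called higher with siVPS4A#1. The chaperone genes HSPA1A and HSPA1B are near-identical copies whose reads may be shared. HSPA1A had few reads, 4 to 7 per library in NT, 2 to 11 with siCTRL#1, 13 to 18 with siVPS4A#1, 3 to 16 with siVPS4A+B#1 and 13 to 42 with siVPS4A+B#2, so its calls are uncertain. HSPA1B differed between the pairs by 1.42 (limma adjusted p = 1.12e-07), and DNAJB1 by 0.70 (adjusted p = 0.000633). Of 8 genes of AP-1 and ATF3, FOSL1, FOSL2, JUNB, JUND and ATF3 were higher with both pairs, with 0 lower with siVPS4A+B#1 (limma, with 5 and 0 at an unadjusted p under 0.05 and by edgeR and DESeq2) and FOS lower with siVPS4A+B#2. ATF3 differed between the pairs by 0.67 (limma adjusted p = 0.0421), although its ranges in them overlapped. FOSL1 went the other way, from a mean of 215 RPM in the first pair to 136 in the second, also with overlap. Of 8 other enzymes of glutathione and peroxides, which are not placed among the NRF2 targets here, 0 were called with siVPS4A+B#1 (limma, with 1 higher and 1 lower at an unadjusted p under 0.05, and 0 by edgeR and DESeq2). CAT (catalase) was lower with siVPS4A+B#2, and 0 were higher (limma, with 0 higher and 1 lower at an unadjusted p under 0.05, 0 and 1 by edgeR and 0 and 0 by DESeq2).

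Single duplexes also moved some genes of these other lists. They are given one by one, and their calls are no result about the lists. Of all genes, 5.73% were called higher and 8.85% lower with siVPS4A#1, 3.7% and 5.23% with siVPS4B#1, and 1.45% and 2.36% with siVPS4B#2. Whether the lists exceed these shares in single silencing was not tested. With siVPS4A#1, NFE2L2 had 74.3 to 97.2 RPM, at a log2 fold change of -1.02 against NT and -0.65 against siCTRL#1 (limma adjusted p = 1.33e-05 and 0.00139). MAFF was called lower there as well, on 0 to 2 reads per library, so no fold change is given. HMOX2, the constitutive haem oxygenase, was called higher with siVPS4A#1 and siVPS4B#1, by 0.76 and 0.60 against siCTRL#1 (limma adjusted p = 2.71e-05 and 0.00137). FLVCR1, a haem exporter, had 3.30 to 6.86 RPM with siVPS4A#1, below NT (14.4 to 19.1) and siCTRL#1 (9.43 to 18.6). GPX1, a glutathione peroxidase, had 1066 to 1685 RPM with siVPS4A#1, above NT (539 to 657) and siCTRL#1 (569.9 to 906). The same duplex had SLC30A1, a zinc exporter, higher by 0.63 against siCTRL#1 (limma adjusted p = 0.000309), and MT1F and FOS lower (-0.95 and -1.56, adjusted p = 1.42e-05 and 0.000336). ATF3 was lower with siVPS4B#1 (-1.35 against siCTRL#1, limma adjusted p = 6.82e-05), and BACH1 and FOSB with siVPS4B#2 (-0.67 and -0.84, adjusted p = 0.0258 and 0.00504). With the library left out put back, the calls of NFE2L2, SLC30A1, HSPA1A, HSPA1B and GPX1 for siVPS4A#1 were lost.

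As a description, genes were ranked by how closely their log2 levels followed HMOX1 over the 37 libraries after removal of the replicate block. Of 11263 other genes with a mean level of 1 or more, the 5 with the highest Pearson r were GCLM (0.931), CYP4F3 (0.929), OPTN (0.926), SDC4 (0.926) and SLC38A6 (0.924). Among the other targets the rank was 9 for SQSTM1 (0.904), 13 for ME1 (0.897), 19 for FTH1 (0.883), 29 for GCLC (0.873), 198 for SRXN1 (0.774), 360 for NQO1 (0.71) and 550 for FTL (0.659), and TXNRD1 was not ranked. The points share conditions, controls and depth, and HMOX1 was highest in the 8 libraries of the pairs.

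The library left out was at the level of a pair for most of the genes. Its values lay within the range of siVPS4A+B#1 for HMOX1, GCLM, GCLC, SQSTM1, FTL, FTH1 and ME1, and all 9 genes other than TXNRD1 were above every control library in it. With this library put back, the counts of genes called higher were again 8 with siVPS4A+B#1 and 9 with siVPS4A+B#2, and the interaction counts were 8 and 7 in place of 9 and 7.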

How the data were processed

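Messenger RNA of 38 HCT116 libraries in 9 conditions was measured. Per the submitters' processing notes, reads from an Ion AmpliSeq Transcriptome panel on the Ion Proton were aligned to the panel transcripts of hg19 with TMAP, followed by counting in HTSeq-count 0.6.0. The deposited signal values give each gene's share of the reads in its library, and how the authors made shares from counts is not stated. They give a minimum of reads for their differential tests, and whether it set the genes of the table is not stated. Reads were recovered from the even steps of the low values. All values of up to 20 steps lay within 0.1 reads of a whole number, and 49.3% of all values carried enough digits to be placed within 0.1 reads by themselves. Total reads and the resulting precision are given with the results, and 3 reads or fewer counted as the floor. RefSeq identifiers were matched to symbols (12474 of 12627).

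Log2 of TMM-scaled RPM, with 1 added, was fitted over all 12627 genes and 37 libraries with limma 3.58.1 (trend, Benjamini-Hochberg adjustment over all genes in each comparison), TMM factors coming from edgeR 4.0.16. The labels tie the replicate number to a batch, so it was a block. Libraries with the same number deviated together slightly (mean r of 0.159 for 137 such pairs, and of -0.0461 for the 471 other pairs). Alternatives were edgeR, DESeq2 1.42.0, DESeq2 size factors, total reads, 0.1 added in place of 1, a filter on low values, no block, leaving out each replicate number, and keeping the library labelled siVPS4A#1 replicate 2. The calls of 1 condition against both controls were tested on simulated counts, with 1 dispersion for all genes and no replicate effect. This test did not cover changes in genes with few reads, the replicate effect or the interactions. R 4.3.3 and Python 3.11.15 were used. The genes and lists were chosen with earlier results of these data known. Each of the 10 genes is accounted for, genes of the other lists are named where called for a condition against both controls or needed to account for their list, and the 5 genes closest to HMOX1 are named. For 1 further gene, which is in none of the lists counted, the result is not reported here.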

Additional observations from a re-analysis of the deposited data

Results flagged for a closer look

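In 6 of 90 groups of libraries, 1 library lay far from the others of its group, and chance alone does this in about 1 in 20 groups. Values are TMM-scaled RPM. For HMOX1 it was replicate 3 of siCTRL#2 with 75.27 (others 54.95 to 57.93). For GCLM it was replicate 3 of NT with 28.09 (others 16.15 to 18.08), and for GCLC replicate 1 of siVPS4A#2 with 71.78 (others 67.86 to 68.4). SRXN1 had 66.49 in replicate 1 of siVPS4B#2 (others 53.65 to 55.6). SQSTM1 had 817.9 in replicate 3 of siCTRL#1 (others 543.3 to 603) and 742.3 in replicate 1 of siVPS4A#1 (others 926.6 to 952.1). Replicate 3 was the high library in 3 of these 6 groups, which was not tested.

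The library labelled siVPS4A#1 replicate 2, used in no comparison, held values above all control libraries. It had 335 for HMOX1, 95.49 for GCLM, 270.3 for GCLC, 187.7 for SRXN1, 437 for NQO1, 102 for ME1, 6422 for SQSTM1, 7530 for FTL and 4590 for FTH1. All but that of FTH1, where the siVPS4A#1 libraries used had 2878 to 6079, were above those libraries. VPS4B was at 1.62 in it, against its label and against 21.4 to 32.1 in the siVPS4A#1 libraries used. Whether samples were exchanged or mixed was not tested.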

How the results depend on the processing

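For the 10 genes, 227 values under other settings stayed the same and 7 moved. These values were counts, taken as the same within 1.5 times the main count, and the HMOX1 log2 fold changes of the pairs against siCTRL#1. The latter were taken as the same within 1 SD of the HMOX1 log2 levels in that pair. The count of genes called higher with siVPS4A#1, 2 in the main fit, was 1 to 2 when a replicate number was left out. With siVPS4B#1 it was 1 and became 0 with the low-read library kept and 0 under total reads, with 0 to 1 when a replicate number was left out. With siVPS4B#2 it was 3, became 1 with that library kept, and was 2 to 3 when a replicate number was left out. Leaving out a replicate number gave 7 to 8 with siVPS4A+B#1 and 9 each time with siVPS4A+B#2. With the low-read library kept, some values of siVPS4A#1 changed sign, namely SRXN1 and GCLC against NT and GCLC and FTL against siCTRL#1, none of them called in either fit. For the calls that moved the cause was not tested.

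Without the replicate block, the interaction was called for 7 of the 10 genes in place of 9 with siVPS4A+B#1, the calls of ME1 and FTH1 being lost, and no other call of these genes changed. FTH1 with siVPS4A+B#1 against siCTRL#1 reached 0.64 on the log2 scale, past the fold of 1.5, without replicate 1 and also without replicate 2. The wider list of NRF2 targets with siVPS4A+B#2, 12 genes higher in the main fit, had 8 to 12 when a replicate number was left out.

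Over all genes, scaling by total reads in place of TMM changed the split of the calls. Of the genes called with siVPS4A+B#1, 50.3% were higher under TMM and 30.3% under total reads, and with siVPS4A+B#2 42.7% and 32.2%. For the interactions the shares were 61.6% and 42.9% with siVPS4A+B#1, and 52.8% and 34.5% with siVPS4A+B#2. Relative to the single silencings, in the order in which the report gives them, the shares went from 48.5% to 31.9%, from 49% to 26%, from 48.9% to 25.8% and from 46% to 34.4%. Between siCTRL#1 and NT they were 53.5% and 68.6%. The interaction counts of all genes, 482 positive and 301 negative with siVPS4A+B#1, were 256 and 71 with the low-read library kept. They were 345 and 154, 259 and 104, and 274 and 102 without replicates 1, 3 and 4. With siVPS4A+B#2 they were 1217 and 1090, and 733 and 492 with that library kept.

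Conditions have 4 or 5 libraries each, all are compared with the same controls, and each gene is read through 1 amplicon. In the difference between the pairs, the duplexes used and the remaining VPS4A and VPS4B levels cannot be told apart. The remaining VPS4A also limits each pair against its VPS4A duplex alone, and the interactions. Few reads limit TXNRD1, whose amplicon was not tested to stand for the whole gene, and the remaining VPS4B.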
